A study of Canis lupus familiaris with 8 samples.

Results

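Krüppel-like factors (KLF) are zinc-finger transcription factors that bind GC-rich and CACCC-type DNA through a conserved cluster of fingers at the C-terminus, while their N-terminal parts recruit activators or repressors. Several members are induced quickly and briefly by growth factors, TGF-beta or fluid shear. In epithelia, KLF4 and KLF5 are known for opposing parts in differentiation and proliferation. The family was followed here through 9 genes chosen by name, KLF2, KLF3, KLF4, KLF5, KLF6, KLF9, KLF10, KLF11 and KLF13, out of 37952 genes counted. Each has its own row in the deposited count table, and all 9 passed the filter on low counts.

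The RNA came from 8 wells of MDCK GII, a dog kidney epithelial cell line, grown overnight as a monolayer on a collagen-coated silicone membrane. In 4 stretch wells the membrane was pulled equally along both in-plane axes to 18% strain for 2 hours, and 4 wells are labelled as controls. No transgene, deletion or drug is given for either group. The labels describe the wells as technical quadruplicates distributed over separate devices, so p-values measure the spread between wells of a single line.

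Total counts ranged from 27047358 to 32478887 per well. The 8 epithelial markers checked were all tested, and their summed level was 5197 to 5811 CPM without strain and 5542 to 5704 CPM with it (CPM, read counts scaled with TMM factors to a common library total). Among them, CDH1, EPCAM and KRT8 had log2 changes of 0.0079, 0.0087 and 0.0033 between the groups with replicates paired, and MUC1, with the smallest p of the list, had 0.14 and was higher in 4 of 4 pairs (blocked edgeR fit, unadjusted p = 0.00629, adjusted p = 0.241). Of 6 fibroblast markers, 4 (COL1A2, COL3A1, DCN and LUM) had 0 counts in every well, and the list summed to at most 0.155 CPM. Endothelial cells are known for high KLF2 and KLF4. The 6 endothelial markers summed to 1.54 to 2.30 CPM in control and 1.33 to 2.37 CPM in stretch wells, with CLDN5 at 0. Most of this came from KDR, with 21 to 51 counts per well and lower after stretch in 4 of 4 pairs, and VWF, with 11 to 22 counts. KDR had a log2 change of -0.39 ± 0.25 (blocked edgeR fit, adjusted p = 0.760). Leukocyte markers summed to 5.76 to 6.81 and 5.21 to 6.63 CPM, most of it CD14, with PTPRC, CD3E and ITGAM at 0. As in any bulk sample, a change in the number of cells of a kind and a change in RNA per cell cannot be told apart.

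After 2 hours of strain, KLF6 RNA rose 1.25-fold in the fit that pairs wells by replicate number. KLF4 had the largest estimate, 1.64-fold higher with no overlap between groups, without passing the test over all genes. KLF10 and KLF3 had smaller positive estimates that did not pass in either edgeR fit. KLF5 and KLF13 had log2 estimates of about 0.10 that did not pass either. KLF2, KLF5, KLF9 and KLF11 showed no direction shared by all pairs. Without a term for the replicate number, 0 of 9 members reached the threshold, a p of 0.05 after Benjamini-Hochberg adjustment over 14571 genes in edgeR's quasi-likelihood test, and neither did any other tested gene (0%). DESeq2 without the block called 0 members and 0.275% of all genes. At an unadjusted p under 0.05 in the edgeR fit without the block there were 3 members, KLF3, KLF4 and KLF6, against 3.97% of all genes. With the replicate number as a block, 1 member, KLF6, rose past the threshold, where 0.700% of all genes passed in either direction and 0.528% passed as higher. At an unadjusted p under 0.05, 6 members were found with the block, against 8.89% of all genes. By direction, 5 of 9 members were higher in 4 of 4 same-numbered pairs (KLF3, KLF4, KLF6, KLF10 and KLF13), a pattern seen in 8.45% of all tested genes. The median log2 change of the 9 members was 0.10 without and 0.11 with the block, beside -0.0032 and -0.0022 over all tested genes. The members were chosen with earlier results of these data known, so these counts and medians only describe them.

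**Figure D1:**
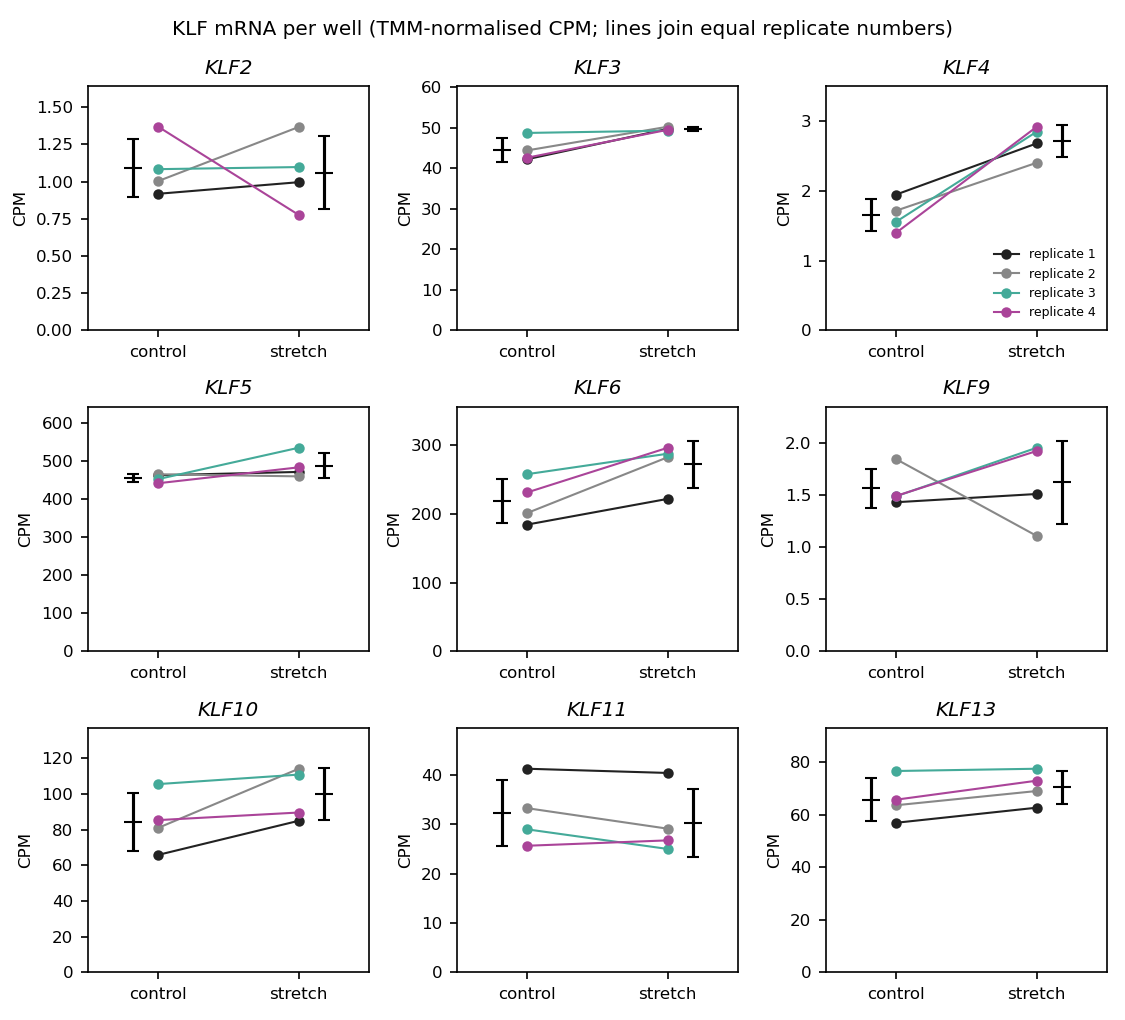
Normalised read counts (CPM, axis from 0) of the 9 KLF genes in control and stretch wells. Coloured points are wells, lines join equal replicate numbers, and black marks give mean ± SD over 4 wells. KLF4 and KLF3 show no overlap between groups, and in KLF6 all 4 lines go up from different starting levels.

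Expression per length set the family in a wide order. In control wells KLF5 was the most abundant at 138 ± 3.24 CPM per kilobase of annotated exon (mean ± SD, n = 4). KLF6 followed at 51.8 ± 7.68 and KLF10 at 27.1 ± 5.25. KLF13 (9.88 ± 1.23) and KLF3 (8.35 ± 0.558) overlapped in their ranges over wells, and KLF11 stood at 5.87 ± 1.23. KLF9 had 1.35 ± 0.163 CPM per kilobase, and KLF2 (0.655 ± 0.117) and KLF4 (0.592 ± 0.0834) overlapped at the bottom. All other neighbours in this order had separate ranges in control wells. In stretch wells KLF4 (0.969 ± 0.0820) lay above KLF2 (0.634 ± 0.147) without overlap of their ranges, while KLF13 and KLF3 still overlapped. KLF5 alone made up 52.6 to 60.5% of the summed per-length level of the 9 genes without strain and 51.4 to 56.7% with it. These levels depend on the annotated exon length, which was only 1159 bases for KLF9 and 6645 for KLF13.

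**Figure D2:**
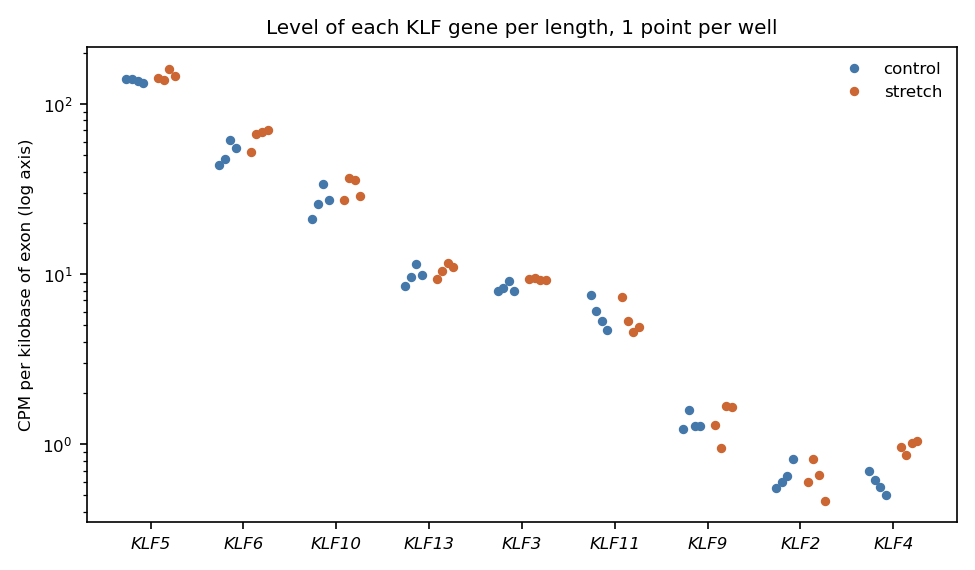
Level of each KLF gene as CPM per kilobase of annotated exon on a log axis, 1 point per well, ordered by the control mean. KLF5 lies above 130 in every well, and KLF4 is the gene whose stretch points clear its control points by the largest ratio.

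KLF6, KLF5, KLF4 and KLF2 act mainly as activators of transcription. KLF6, an early-response factor that induces the cell-cycle inhibitor gene CDKN1A, lies on chromosome 2 (30688899 to 30698432, plus strand). Its control wells held 184, 201, 258 and 231 CPM for replicates 1 to 4, the order used for every gene here, and its stretch wells 222, 282, 287 and 296 CPM. Stretch replicate 1 lay within the control range, and the other 3 stretch wells were above every control well. The group means were 219 ± 32.4 and 272 ± 33.9 CPM (SD, n = 4 each). Pair by pair, KLF6 was higher by 0.27, 0.49, 0.16 and 0.36 on the log2 scale. With the block the log2 change was 0.32 ± 0.05 (SE), a 1.25-fold rise with an unadjusted 95% interval of 1.16 to 1.34 (edgeR, adjusted p = 0.00311). Without the block the estimate was 0.31 ± 0.12 and did not pass (edgeR, adjusted p = 0.999). The call was also lost with a block of 2 levels, replicates 1 and 2 against 3 and 4 (0.32 ± 0.07; edgeR, adjusted p = 0.134, where 0.398% of genes passed), and without the pair of replicate 4 (adjusted p = 0.0571 in the blocked edgeR fit, where 0.507% passed). KLF6 kept its call without the pair of replicate 1, 2 or 3, where 0.293%, 0.458% and 1.27% of genes passed. It also passed with the block under DESeq2 (1.48%), limma-voom (0.837% of genes), DESeq2 size factors (0.721%) and library size only (0.762%). Replicates 1 and 2 gave a log2 change of 0.39 by themselves and replicates 3 and 4 one of 0.26, where 0.348% and 0.169% of genes but 0 members passed.

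KLF4, a factor of epithelial differentiation and growth arrest, lies on chromosome 11 (63258346 to 63263062, minus strand). It was scarce, with 45 to 53 raw counts per control well and 65 to 94 per stretch well. In CPM the control wells had 1.95, 1.72, 1.56 and 1.40, and the stretch wells 2.68, 2.40, 2.85 and 2.92. Every stretch well was above every control well, a separation shared by KLF3 among the members and by 1.30% of all tested genes. KLF4 had the largest estimate in the family, a log2 change of 0.72 ± 0.18 without and 0.72 ± 0.19 with the block, or 1.64-fold with an unadjusted 95% interval of 1.26 to 2.14 without it. It did not pass in either fit (edgeR, unadjusted p = 0.00135 and 0.00177, adjusted p = 0.513 and 0.124). When the count filter was dropped, KLF4 passed with the block (edgeR, adjusted p = 0.0101, where 2.04% of genes passed) and 0 members passed without it (0.0501% of genes). The same-numbered pairs differed by 0.45, 0.47, 0.84 and 1.02 on the log2 scale, all positive. Replicates 1 and 2 gave an estimate of 0.48 and replicates 3 and 4 one of 0.97. The difference between those sets of wells did not pass (edgeR interaction term 0.49 ± 0.37, adjusted p = 0.942).

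KLF5, a factor of proliferating epithelial cells, lies on chromosome 22 (27268194 to 27290288, plus strand) and was the best-measured member, with 12460 to 15617 counts per well. Control wells held 463, 466, 453 and 442 CPM, and stretch wells 472, 460.3, 536 and 484 CPM. Stretch replicate 3 was the highest well, and stretch replicate 2 lay within the control range. The log2 change was 0.10 ± 0.05 without and 0.10 ± 0.04 with the block (edgeR, adjusted p = 0.999 and 0.486). Its 95% interval ran from 0.995-fold to 1.15-fold without the block and from 1.01-fold to 1.13-fold with it. Replicates 1 and 2 gave 0.0048 and replicates 3 and 4 gave 0.19. This was the only member whose difference between those sets had an unadjusted p under 0.05 (edgeR interaction term 0.18 ± 0.08, unadjusted p = 0.0402, adjusted p = 0.837), against 5.72% of all genes. Without stretch replicate 3 the estimate was 0.051, and 0.046 in the blocked fit without that pair. KLF2, the shear-responsive factor of endothelium on chromosome 20 (46591720 to 46594153, minus strand), had 25 to 44 counts per well. Its control wells held 0.918, 1.00, 1.08 and 1.37 CPM and its stretch wells 0.996, 1.37, 1.10 and 0.776 CPM. Stretch replicate 4 was the lowest of all wells and the groups overlapped, and the 95% interval of the change without the block, 0.657-fold to 1.41-fold, spans changes in both directions at this depth.

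**Figure D3:**
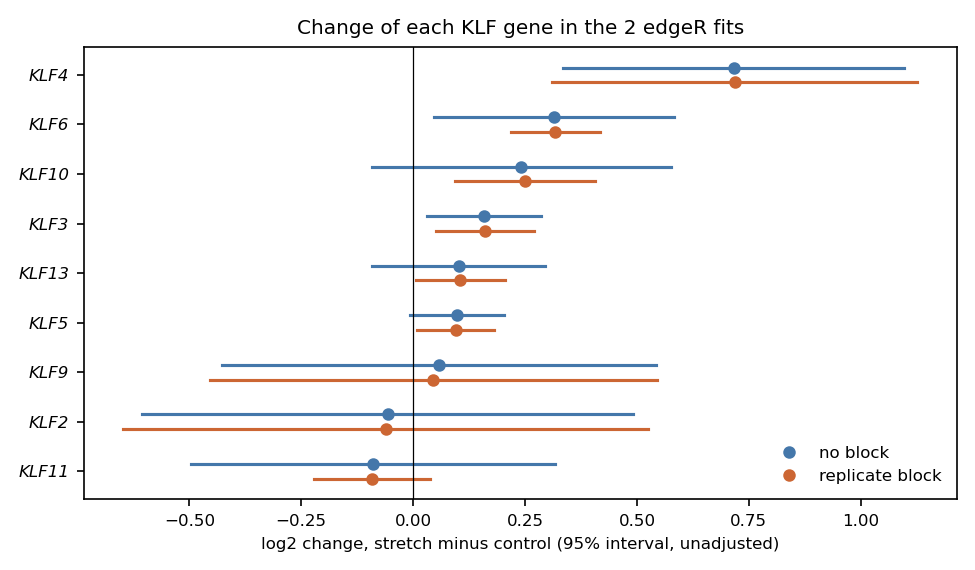
Log2 change of each KLF gene, stretch minus control, in the edgeR fits without and with the replicate block, with unadjusted 95% intervals over 4 wells a group. Estimates barely move between fits, while the block narrows the interval of KLF6 from 0.05 to 0.58 down to 0.22 to 0.42. The intervals of KLF2, KLF4 and KLF9 are slightly wider with the block, and those of the remaining members are narrower.

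KLF3 is a repressor that works through the CtBP corepressors. It lies on chromosome 3 (74200168 to 74236753, minus strand). Control wells held 42.3, 44.4, 48.7 and 42.6 CPM, and stretch wells 49.8, 50.3, 49.3 and 49.5 CPM. All stretch wells were above all control wells, but control replicate 3 came within 0.02 log2 units of its stretch partner. The stretch SD of 0.415 CPM was smaller than the control SD of 2.97 CPM (means 49.7 and 44.5 CPM, n = 4 each). The log2 change of 0.16 ± 0.06 without and 0.16 ± 0.05 with the block did not pass (edgeR, adjusted p = 0.999 and 0.244).

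KLF9, KLF10, KLF11 and KLF13 belong to the branch that represses through the SIN3A corepressor. KLF10, first described as a gene induced early by TGF-beta, lies on chromosome 13 (4349283 to 4355987, minus strand). Control wells held 65.9, 81.0, 106 and 85.4 CPM, and stretch wells 85.0, 114, 111 and 89.6 CPM, so the groups overlapped. The pairs differed by 0.37, 0.49, 0.07 and 0.07 on the log2 scale. With the block the log2 change was 0.25 ± 0.07, which did not pass in edgeR (adjusted p = 0.216). It passed with the block under DESeq2 (adjusted p = 0.0393, where 1.48% of genes with an adjusted p passed). It also passed in edgeR with the block when the pair of replicate 3 was left out (adjusted p = 0.0228, where 1.27% of genes passed). Without the block the estimate was 0.24, and it moved to 0.14 without control replicate 1 and to 0.37 without control replicate 3. Replicates 1 and 2 gave 0.44 and replicates 3 and 4 gave 0.08, and the difference between them did not pass (edgeR interaction term -0.37 ± 0.32, adjusted p = 0.962).

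KLF11, the closest relative of KLF10 and likewise TGF-beta-inducible, lies on chromosome 17 (7044796 to 7056291, plus strand). Control wells held 41.3, 33.3, 29.0 and 25.7 CPM, and stretch wells 40.4, 29.1, 25.0 and 26.8 CPM. Replicate 1 was the highest well in both groups, and 3 of 4 pairs were lower after stretch. The log2 change with the block was -0.09 ± 0.06 (edgeR, adjusted p = 0.772). KLF10 and KLF11 thus had estimates of opposite sign with the block, and the difference between the genes was not tested.

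KLF13, known for regulating the chemokine gene CCL5 in T lymphocytes, lies on chromosome 3 (38003294 to 38053725, minus strand). Its control wells held 56.9, 63.5, 76.5 and 65.6 CPM and its stretch wells 62.6, 68.9, 77.4 and 72.9 CPM. Each pair was higher after stretch, by 0.14, 0.12, 0.02 and 0.15 on the log2 scale, inside overlapping groups. The log2 change of 0.11 ± 0.05 with the block did not pass (edgeR, adjusted p = 0.517). Without the block it was 0.10, and it moved to 0.042 without control replicate 1, 0.18 without control replicate 3, 0.16 without stretch replicate 1 and 0.055 without stretch replicate 3. KLF9, known for induction by glucocorticoid and thyroid hormones, lies on chromosome 1 (87779152 to 87801513, plus strand) and had 30 to 62 counts per well. Control wells held 1.43, 1.84, 1.49 and 1.49 CPM, and stretch wells 1.51, 1.11, 1.95 and 1.92 CPM. The lowest and the highest well were both stretch wells, and the 95% interval of the change without the block was 0.744-fold to 1.46-fold.

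The members did not vary from well to well in the same way. After the group mean was removed, KLF6, KLF13 and KLF10 were high in the same wells, with Pearson's r of 0.92 for KLF6 with KLF13, 0.84 for KLF10 with KLF13 and 0.80 for KLF6 with KLF10 (8 wells, a description). KLF11 ran opposite to these genes, with r of -0.89 to KLF6, -0.81 to KLF13 and -0.69 to KLF10. KLF4 and KLF2, both low in counts, had an r of -0.84. The wells share their libraries and sequencing depth across genes. A first component of the same deviations over 1000 variable genes, computed without KLF genes, held 33.8% of their variance. On it, replicates 1 and 2 of both groups scored below 0 and replicates 3 and 4 above 0. KLF6 followed this axis with r = 0.91, KLF13 with 0.89, KLF10 with 0.72 and KLF11 with -0.77, while KLF5 (0.05) and KLF9 (0.07) did not. The size of that correlation lay above that of 93.1% of tested genes for KLF6, 90.0% for KLF13, 74.9% for KLF11 and 68.9% for KLF10. Mean KLF6 was 222 CPM over the wells of replicates 1 and 2 and 268 CPM over those of replicates 3 and 4, a gap close to that between control and stretch. KLF11 went the other way, from 36.1 to 26.6 CPM.

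**Figure D4:**
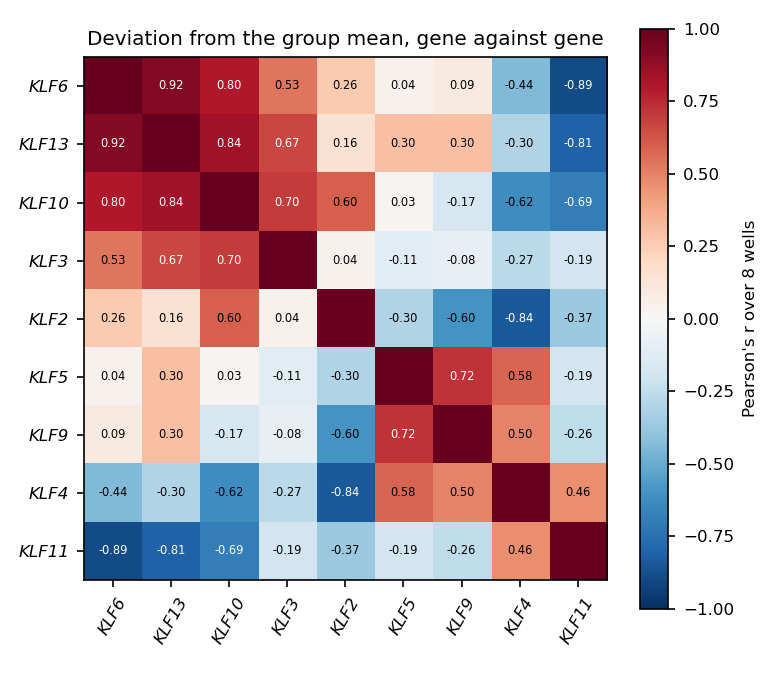
Pearson's r between KLF genes over 8 wells, from log2 CPM after subtracting each group's mean. KLF6, KLF13 and KLF10 form a red corner with r from 0.80 to 0.92, and KLF11 is blue against all 3.

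Genes whose pattern over the 8 wells was among the most like KLF6 were FAM110C (r = 0.98), POLR3K (0.98), CYP2U1 (0.98) and EPHA2 (0.97), among 11061 genes with a mean of at least 5 CPM. The difference between groups was kept in this correlation, so picking by it favours genes that are higher after stretch, as KLF6 is. EPHA2, an ephrin receptor, had a log2 change of 0.53 without passing (blocked edgeR fit, adjusted p = 0.0953). FAM110C, POLR3K (a subunit of RNA polymerase III) and CYP2U1 (a cytochrome P450) did not pass either.

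The other KLF genes gave no calls. Of 8, 4 were tested (KLF7, KLF12, KLF15 and KLF16) and 0 passed in either edgeR fit, with log2 changes from -0.04 to 0.14 and a median of 0.08 with the block, beside -0.0022 over all tested genes. At an unadjusted p under 0.05, 0 of the 4 were found in either fit. KLF7 was the most abundant of them at 101 ± 25.7 CPM in control and 110 ± 9.83 CPM in stretch wells, a log2 change of 0.14 ± 0.11 with the block, and KLF16 had 0.10 ± 0.07. KLF7 and KLF12 each overlap exons of 1 gene on the opposite strand, so both values are uncertain, whereas none of the 9 members overlaps another gene's exons. KLF8 had 0 counts in 8 wells, which allows at most 0.0126 CPM over the pooled counts, and KLF1, KLF14 and KLF17 had at most 7 counts in any well. Among SP factors, which bind the same kind of sites, 4 of 9 were tested and 0 passed (median log2 change -0.06 with the block). SP1 and SP4 had log2 changes of -0.10 and -0.12 with the block (edgeR, adjusted p = 0.503 and 0.783).

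Upstream genes were read from 3 lists. In the ERK5 route, which drives KLF2 and KLF4 through MEF2 factors, 6 of 7 genes were tested and 0 passed (median 0.0048). MEF2A had a log2 change of 0.21 and MEF2D of 0.16, higher in 4 of 4 pairs each (blocked edgeR fit, adjusted p = 0.0683 and 0.265), while the kinase genes MAPK7 and MAP2K5 had 0.0018 and -0.01. In the TGF-beta route all 6 were tested and 1 passed with the block (median 0.06). TGFBR2, the type II receptor gene, rose from 89.1 ± 4.23 to 104 ± 5.39 CPM, by 0.22 ± 0.04 on the log2 scale (edgeR, adjusted p = 0.0210 with the replicate block, 0.0305 with the block of 2 levels and 0.567 without). This call was lost without the pair of replicate 1, 2 or 4 (edgeR with the replicate block, adjusted p = 0.210, 0.0625 and 0.0569). SMAD3 had 0.16 and did not pass (blocked edgeR fit, adjusted p = 0.324). Of the glucocorticoid receptor gene and its targets, 5 of 6 were tested and 0 passed (median 0.05). PER1 and SGK1 had log2 changes of 0.23 and 0.13 (blocked edgeR fit, adjusted p = 0.0990 and 0.124), and TSC22D3, a classic target, had -0.18.

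Partners, turnover genes and targets gave no calls. All 10 corepressor and coactivator genes were tested and 0 passed, with log2 changes from -0.10 to 0.20 and a median of -0.03 with the block, KAT2B highest and HDAC3 at -0.10. All 9 genes of KLF protein turnover, mainly ubiquitin ligases, were tested and 0 passed (median -0.02). FBXO32 had -0.26 and BTRC 0.07 (blocked edgeR fit, adjusted p = 0.792 and 0.863). Of 12 reported target genes 9 were tested and 0 passed in either fit (median 0.03 with the block). At an unadjusted p under 0.05 in edgeR there were 2 without the block and 3 with it, against 3.97% and 8.89% of all genes. THBD, the thrombomodulin gene activated by KLF2 and KLF4, went from 0.727 ± 0.262 to 1.31 ± 0.273 CPM on 12 to 52 counts per well, with no overlap between groups and a log2 change of 0.87 ± 0.30 (blocked edgeR fit, adjusted p = 0.286). CDKN1A, a target of KLF4 and KLF6, went from 109 ± 18.6 to 151 ± 33.5 CPM, higher in 4 of 4 pairs (0.45 ± 0.12; blocked edgeR fit, adjusted p = 0.381).

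**Figure D5:**
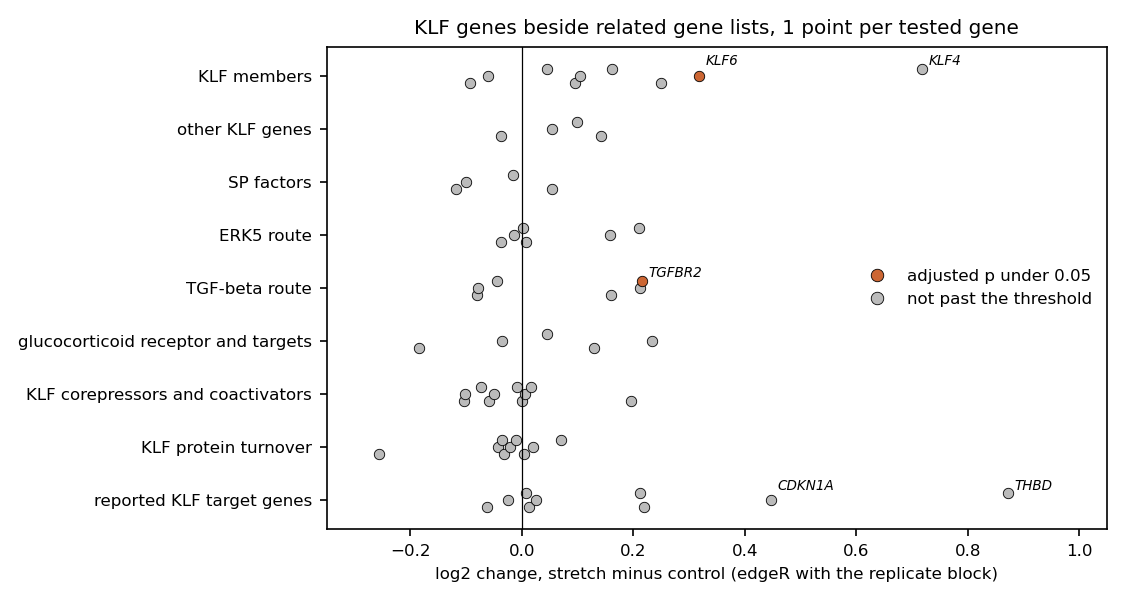
Log2 change with the replicate block for every tested gene of the KLF family and of related lists, 1 point per gene. KLF6 and TGFBR2 are the coloured points past the threshold, and KLF4, CDKN1A and THBD lie further right without passing.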

How the data were processed

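Poly(A) RNA libraries made with a strand-specific kit were sequenced from 4 control and 4 stretch wells, per the labels. The deposited values are raw read counts, summed by gene across its exons. STAR 2.7.3a, Trim Galore 0.6.5 and featureCounts are among the tools named, with no role stated, per the submitters' processing notes. Strand setting and handling of multi-mapping reads are not given in the sources used here. The table names no build, but 37291 of 37952 symbols matched the RefSeq table of UU_Cfam_GSD_1.0, all with identical start and end, and the coordinates printed are the table's own. No dog sequence was used.

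All genes were fitted together in edgeR 4.0.16 (R 4.3.3; TMM, filterByExpr with a minimum count of 10 and total of 15, glmQLFit robust, glmQLFTest, two-sided, Benjamini-Hochberg at 0.05). The 95% intervals come from this fit and are unadjusted. Alternatives were the replicate block, a block of 2 levels, DESeq2 1.42.0, limma-voom 3.58.1, other scaling, no filter and wells or pairs left out. An interaction term between stretch and replicate set (1 and 2, or 3 and 4) was added after seeing the data. Same-numbered wells deviated together from their group means in all 4 pairs (r across genes from 0.108 to 0.328). Differently numbered wells were not compared in this way. The r values therefore cannot tell 4 pairs from a difference between replicates 1 and 2 and replicates 3 and 4. The numbers, taken from the sample titles, were treated as pairs and blocked values are given. No 2 wells of the same group agreed within sampling noise (chi-square per degree of freedom from 5.56 to 26.8), and control wells were not compared with stretch wells in this way. Scripts were tested on simulated data.

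Members and lists were chosen with earlier results of these data known. Every member is named, then the 2 genes of each other list, marker lists aside, with the smallest p in the blocked fit and the 5 genes most correlated with the member of smallest p (log2 CPM, prior count of 2), of which 1 is not reported here. Further genes named as examples (MAPK7, MAP2K5, TSC22D3, KLF12, KLF15 and the markers) were chosen after their values were seen.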

Additional observations from a re-analysis of the deposited data

Results flagged for a closer look

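In 1 of the 18 groups of 4 wells examined (9 members in 2 groups), Dixon's test on the ratio of gap to range set 1 well apart from the rest. This was KLF9 in control replicate 2, at 1.84 CPM against 1.43 to 1.49 CPM in the other control wells (ratio 0.853). Chance alone would give about 0.9 such groups.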

How the results depend on the processing

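The call of KLF6 depended on the model. Without the block, 0 members passed under DESeq2, DESeq2 size factors, no filter, each of 8 wells left out (where 0 to 0.0814% of genes passed), replicates 1 and 2 alone or 3 and 4 alone, and 0 passed with the block of 2 levels. With the replicate block, 1 member passed in edgeR, in limma-voom, with DESeq2 size factors and with library size only; this was KLF6 in each. DESeq2 with the replicate block called 2 (KLF6 and KLF10; it gave no adjusted p for KLF2, KLF4 and KLF9), and edgeR with the replicate block and no count filter called 3 (KLF6, KLF10 and KLF4, where 2.04% of genes passed). Over the settings that leave out a well or a pair, the count ran from 0 to 2. KLF3, KLF4, KLF5, KLF6, KLF10 and KLF13 stayed above 0 under all 24 alternatives, and the lowest estimates were 0.12, 0.48, 0.0048, 0.24, 0.077 and 0.042 (KLF13, without control replicate 1). KLF2, KLF9 and KLF11 changed sign. KLF2, at -0.057 in the edgeR fit without the block, had 0.29 within replicates 1 and 2 and -0.39 within replicates 3 and 4. It ran from -0.23 to 0.20 with a well or pair left out (0.073 without control replicate 4, 0.074 without stretch replicate 4). KLF9, at 0.058 in the edgeR fit without the block, had -0.32 within replicates 1 and 2 and 0.38 within replicates 3 and 4. It ran from -0.074 (without the pair of replicate 3, and -0.072 without that of 4) to 0.29 with a well or pair left out. Without stretch replicate 3 or 4 it had -0.039 and -0.031. KLF11 ran from -0.26 to 0.051 with a well or pair left out, positive only without control replicate 1. Depth limits KLF2, KLF4 and KLF9, which had 25 to 94 counts per well. The causes of these changes were not tested.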
